A study of Homo sapiens with 54 samples.

Results

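Small nucleolar RNAs (snoRNAs) and small Cajal body RNAs were followed in H4 cells, a human line described as glioneuronal, in RNA bound to Argonaute and in the total lysate. The genes were those whose probe set carried 1 gene symbol, starting with SNORD, SNORA or SCARNA, with host genes left out and the brightest probe set kept per gene. They came to 192 of 18417 genes: 115 C/D box genes, 61 H/ACA box genes and 16 Cajal body genes. Of these, 85 lay above the lowest 40% of genes by mean signal over all arrays and were tested among 11050 genes; the other 107 had mean lysate signals from 2.33 to 7.39 on the log2 scale. SCARNA5 and SCARNA8 lay just under the limit of 5.26 log2 units, with overall means of 5.23 and 5.26, and SNORD50A and SNORA62 just above it, with 5.27 and 5.29.

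The cells had been transfected with miR-103, miR-107, miR-16, miR-195, miR-320, miR-15b*, miR-107-mut1, miR-107-mut2 or a negative control RNA from Ambion, and were harvested after 48 hours. The labels name miR-320 a control miRNA and call miR-15b* an antisense control, and the design text calls both mutants and the negative control non-physiological. The array titles write miR-15b where the design text has miR-15b*, the name used here. Each culture gave an immunoprecipitate (IP) made with the anti-Argonaute monoclonal antibody 2A8 and a total lysate. There were 3 biological replicates for each of the 9 RNAs in each fraction, or 54 Affymetrix Human Gene 1.0 ST arrays of 1 transfected line. The number of arrays limits the precision, and 3 replicates were the basis of every group value below. In the lysates the glial genes VIM and CD44 were bright (means 12.56 and 12.95), the glial genes GFAP and S100B were dim (6.69 and 4.47), and the 6 neuronal genes measured ran from 5.6 for NEFM, through 6.53 for SYP, 6.67 for NEFL, 7.48 for RBFOX3 and 8.09 for MAP2, to 9.77 for ENO2. PTPRC, a leukocyte marker, gave 3.6 and EPCAM, an epithelial one, 4.4, while the epithelial keratins KRT18 and KRT8 gave 10.33 and 9.94.

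Box C/D snoRNAs guide the methylation of ribose in ribosomal RNA, box H/ACA snoRNAs guide the conversion of uridine to pseudouridine, and Cajal body RNAs guide the same modifications on spliceosomal RNAs. Most human snoRNAs lie in introns of host genes, many of which encode ribosomal proteins or long noncoding RNAs, and are cut out of the spliced intron and bound by a small set of core proteins. Some snoRNAs lie in imprinted clusters of many near-identical copies, such as SNORD115 and SNORD116 within SNHG14, the locus of Prader-Willi syndrome. Short fragments of some snoRNAs are known to be found with Argonaute proteins. A probe set on this array cannot tell a fragment from the full-length RNA or from unspliced host RNA that covers it.

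The natural guides of the miR-15/107 group differ in their seeds, which is the division that the comparison of pooled guides below rests on. Their mature sequences, from RefSeq on GRCh38.p14 and with the seed (bases 2 to 8) in capitals, are shown here because 2 of them share each seed. The transfected molecules' own sequences were not used here.
miR-103: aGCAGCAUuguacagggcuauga
miR-107: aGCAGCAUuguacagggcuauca
miR-16: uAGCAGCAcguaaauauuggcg
miR-195: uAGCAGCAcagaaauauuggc

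Array means lay between 3.61 and 3.65 for IPs and between 7.11 and 7.17 for lysates, so the fractions were on different scales. Within a fraction, 4 arrays stood apart by a low median correlation with the others. They were the IP of miR-15b* replicate 1 (0.821, against 0.887 to 0.943 for the other IPs) and the lysates of replicate 2 of miR-103, miR-16 and miR-15b* (0.929, 0.889 and 0.866, against 0.95 to 0.972). The same 3 lysates had snoRNA medians of 8.35, 8.51 and 8.64, against 7.95 to 8.47 in the other lysates, and the IP had a snoRNA median of 4.17, against 4.9 to 6.21 in the other IPs. Results that rest on them are given with and without them. Labels give all arrays of 1 replicate number the same 6-digit tag, which reads as a date of unstated kind, so a fit with the replicate number as a block is given wherever it moved a count of calls.

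SNORD116-15, a copy of the Prader-Willi cluster, had the brightest probe set of all the snoRNA genes in both fractions. Its control values were 12.70, 12.69 and 12.64 log2 units in the IP and 13.31, 13.37 and 13.28 in the lysate. Over all 27 arrays of each fraction its signal averaged 12.72 in the IP and 13.31 in the lysate. Another 3 copies, SNORD116-14, SNORD116-20 and SNORD116-24, were among the 10 brightest in both fractions, with IP means of 11.30, 11.21 and 10.84 and lysate means of 12.16, 12.06 and 11.72. These figures are each probe set's own signal and do not rank the RNAs by abundance.

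The other bright members fell into several classes. SNORD13, which is transcribed from its own gene and takes part in modifying the small ribosomal RNA, averaged 8.82 in the IPs and 12.29 in the lysates. Its pseudogene SNORD13P3 averaged 8.47 in the IPs and 12.06 in the lysates, but that probe set may read SNORD13 itself. The pseudogenes SNORD13P1, SNORD13P2 and SNORD13P3 are counted among the C/D box genes. SNORD33, from an intron of the ribosomal protein gene RPL13A, averaged 10.92 in the IPs and 12.13 in the lysates. Of the H/ACA genes, SNORA71D averaged 9.78 in the IPs and 11.71 in the lysates, SNORA23 8.59 and 12.06, and SNORA3A 7.79 and 12.19. Among Cajal body RNAs SCARNA12, from an intron of PHB2, averaged 7.47 in the IPs and 11.07 in the lysates.

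The sister cluster SNORD115, known for its brain-specific expression, lay at the opposite end. The medians of its 20 copies ran from 1.35 to 3.28 in the IPs and from 2.33 to 3.68 in the lysates, and none passed the filter. The 5 dimmest snoRNA genes in the lysates were all SNORD115 copies, the lowest being SNORD115-4 with a mean of 2.33. The 2 SNORD113 and 4 SNORD114 copies, of the imprinted cluster within MEG8, had IP medians between 1.57 and 2.20 and lysate medians between 2.80 and 3.63, and none was tested. Of the 20 SNORD116 copies 14 were tested. Copies of 1 cluster are close in sequence, so their probe sets may read each other's RNA. The deviations of the 14 copies from their group means had a median correlation between copies of 0.74 over the 27 IPs (91 pairs, 0.18 to 0.99) and 0.76 over the 27 lysates (0.01 to 0.96). Between the 71 other tested snoRNA genes the medians were 0.29 in the IPs and 0.48 in the lysates.

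**Figure D1:**
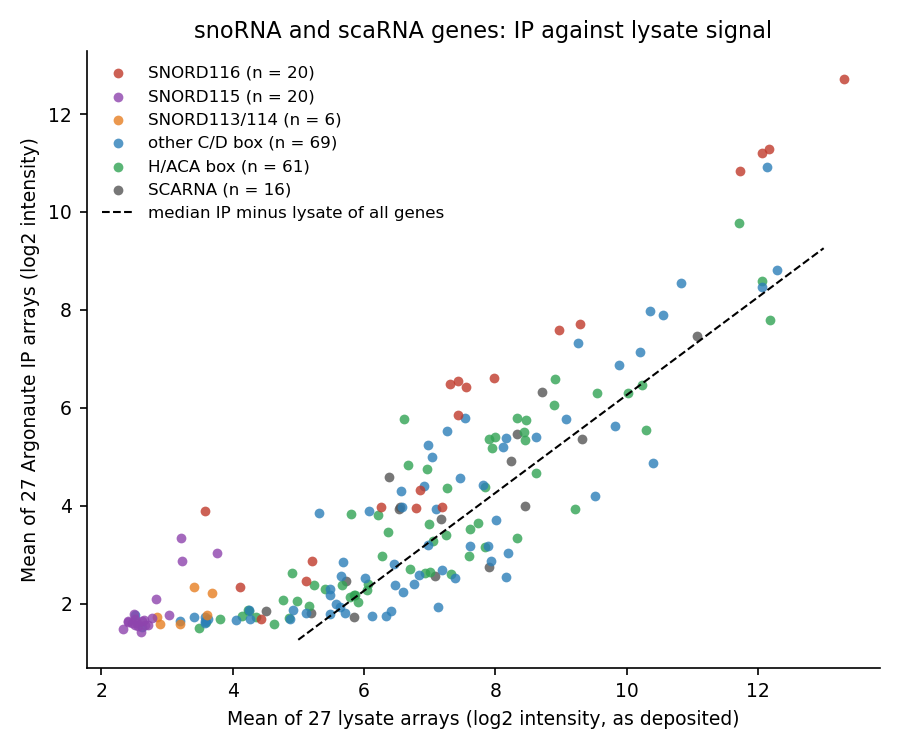
Mean deposited log2 signal of each of the 192 snoRNA genes over 27 Argonaute IP arrays (vertical axis) and 27 total lysate arrays (horizontal axis), coloured by class or cluster. The dashed line marks the median IP minus lysate difference of all genes, -3.74; SNORD116 copies with bright lysate signals lie above it, and SNORD115 copies gather at the dim end.

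The first question was which snoRNAs were over-represented in Argonaute-bound RNA relative to the lysate. On the deposited scale the IP lay below the lysate by a median of 3.69 log2 units over all genes in control cells (a difference of -3.69) and by less for the snoRNA genes (-2.87). To set the fractions side by side, all 54 arrays were put on 1 scale by cyclic loess, so that a difference is relative to the trend of all genes and says nothing of absolute amounts. Of the 192 snoRNA genes 77 (40.1%) were higher and 34 (17.7%) lower in the control IP at an adjusted p under 0.05 (limma, all 18417 genes). Over all genes 36.3% were higher and 34.1% lower. The median difference was 0.28 for the snoRNA genes and 0.06 for all genes. With the filter 55 rose and 8 fell of 85 (74.1%), where 75.9% of all tested genes were called, 38.3% higher and 37.6% lower, but the filter averages both fractions, so a gene dim in the lysate passed only if it was bright in the IP, and nothing is read from that count.

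SNORD116 held 17 of the 77 higher calls. Of its 20 copies 17 were higher in the control IP and none lower after loess, with a median difference of 2.56 (-0.30 to 3.43), whereas on the deposited values, where nearly the whole IP is dimmer, 13 of the 14 tested copies were lower, with a median of -1.42. Without the SNORD113 to SNORD116 clusters, 50 of 146 snoRNA genes were higher (34.2%, against 36.3% of all genes) and 34 lower (23.3%, against 34.1%). Their median of 0.06 was the same as for all genes. Quantile normalization gave 14 of 14 tested copies higher (median 2.52). That fit held only genes past the filter described above, and the share of all genes called in it is not given, so nothing is read from that count. On the deposited values SNORD116-16 and SNORD115-25 were the only snoRNA genes of the 192 whose mean over all IPs lay above that over all lysates (0.31 and 0.13), so each direction below is relative to the trend of all genes. By rank among all genes in its own fraction, which needs no common scale, the middle SNORD116 copy stood at percentile 92.5 in the IPs and 43.9 in the lysates. SNORD115 gave 7 of 20 higher (35%, near the 36.3% of all genes) with a median of 0.30. The lysate signals of all 20 copies were at or below percentile 2.2 of all genes, while in the IPs SNORD115-32, SNORD115-25 and SNORD115-44 stood at percentiles 42.5, 42.0 and 31 and the other 17 copies at or below 12.2.

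The values behind single copies show the separation. SNORD116-20 had 12.86, 12.87 and 12.48 log2 units in the control IPs after loess, against 9.98, 10.09 and 9.96 in the control lysates, a difference of 2.73 ± 0.30 (SE, n = 3 each, limma adjusted p = 9.4e-11). SNORD116-27 had 8.33, 8.37 and 8.37 in the control IPs, against 5.51, 5.03 and 5.08 in the control lysates, a difference of 3.15 ± 0.34. In both cases the groups did not overlap. The copies that did not pass were SNORD116-12 (0.14), SNORD116-18 (0.67) and SNORD116-28 (-0.30), of which SNORD116-12 and SNORD116-28 had median IP signals of 2.42 and 1.64 and median lysate signals of 5.13 and 4.4.

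The pattern returned in the other transfections. With the cells' own lysate as the counterpart, 15 to 19 of the 20 SNORD116 copies were higher in the IP in each of the 9 transfections. The median difference ran from 2.14 with miR-320 to 3.82 with miR-16, and was 2.56 with the negative control. At most 1 copy was lower in any transfection. Of all genes 35% were higher with miR-103, 36.8% with miR-107, 34.8% with miR-16, 37.5% with miR-195, 36.8% with miR-320, 33.6% with miR-15b*, 36.5% with miR-107-mut1 and 35.5% with miR-107-mut2. The 69 other C/D box genes had medians between -0.24 and 0.26 over the same 9 comparisons.

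**Figure D2:**
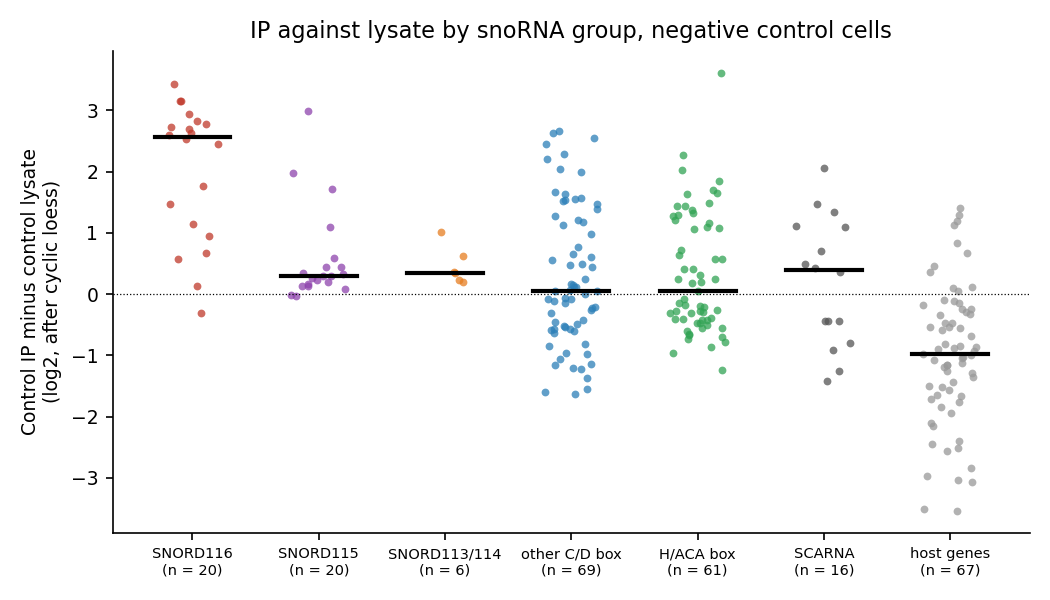
IP minus lysate difference in negative control cells (log2, after cyclic loess of all arrays) for each snoRNA gene by class or cluster and for their host genes; each point is 1 gene and each bar the median. SNORD116 has a median of 2.56, the other C/D box, H/ACA and SCARNA genes lie on both sides of 0, and the host genes have a median of -0.98.

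The C/D box genes outside these clusters went both ways, with 22 higher and 19 lower of 69 (31.9% and 27.5%, against 36.3% and 34.1% of all genes). SNORD33 stood out among the bright ones. It had 12.83, 12.59 and 12.47 in the control IPs after loess, against 10.13, 10.04 and 9.84 in the control lysates (2.63 ± 0.28, SE, n = 3 each, limma adjusted p = 4.3e-11). SNORD14C, a U14 snoRNA needed for processing of the small ribosomal RNA and encoded in HSPA8, had 9.79, 9.55 and 9.74 in the IPs, against 7.17, 7.02 and 6.91 in the lysates (2.66 ± 0.31). Both were separated from their lysates without overlap. At the other end SNORD28, from the noncoding host SNHG1, had 4.52, 4.47 and 6.10 in the control IPs, against 6.88, 6.68 and 6.41 in the control lysates (-1.63 ± 0.41, limma adjusted p = 0.00053). The IP of replicate 3 lay above the other 2 IPs, though still under every lysate value.

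Among the H/ACA genes 22 were higher and 10 lower of 61 (36.1% and 16.4%), so that the share of higher genes was that of all genes (36.3%) and the share of lower ones was smaller (34.1% of all genes). SNORA14A, within the gene of cytochrome P450 oxidoreductase (POR), had the largest difference of the 192: 8.0, 7.73 and 8.29 in the control IPs, against 4.32, 4.43 and 4.42 in the control lysates (3.61 ± 0.64, SE, n = 3 each, limma adjusted p = 2.9e-06). SNORA50A (-1.24), SNORA20 (-0.86) and SNORA55 (-0.65) were the tested H/ACA genes that fell. Of the 16 Cajal body genes 6 were higher and 5 lower (37.5% and 31.2%), both near the shares of all genes. SCARNA10 had 4.49, 4.97 and 4.71 in the control IPs, against 6.06, 5.78 and 6.09 in the control lysates (-1.25). SCARNA17 was called higher (0.70), yet its IP values of 6.84, 7.50 and 6.46 overlapped its lysate values of 6.62, 5.98 and 6.12.

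Some snoRNAs are used as loading controls for microRNA assays. SNORD44, a GAS5 snoRNA, had a difference of -0.57 ± 0.39 (adjusted p = 0.19), with IP values of 5.85, 4.83 and 4.92 overlapping lysate values of 6.0, 5.98 and 5.33. SNORD43, from RPL3, had a difference of -0.08 ± 0.18 (adjusted p = 0.72). These misses do not show that either RNA was equal between the fractions.

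Genes of 1 host often shared a direction. All 4 snoRNAs of RPL13A were higher in the control IP: SNORD33 by 2.63, SNORD34 by 1.48, SNORD32A by 1.27 and SNORD35A by 0.78. Both U14 genes of HSPA8, SNORD14C and SNORD14E, were higher, by 2.66 and 1.55, as were both snoRNAs of NOP56 and both of RACK1. The 3 RABGGTB snoRNAs fell, SNORD45A by 1.15, SNORD45B by 1.14 and SNORD45C by 0.59. GAS5, a noncoding host, had 4 of 7 lower and none higher, and SNORD78 was its lowest at -1.60. Other hosts were split: in RPS3, SNORD15B was higher by 1.21 and SNORD15A was lower by 0.97, and in RPL3 SNORD83B (2.54) and SNORD83A (1.63) were higher while SNORD43 was not called. Hosts were assigned by position, without regard to strand.

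Host genes and their snoRNAs were set side by side. Of the 192 snoRNA genes 174 lay within exactly 1 other annotated gene, 91 hosts in all. Of these, 32 lay in hosts with a symbol starting RPL or RPS, among them SNORA7B in the pseudogene RPL32P3. Of the 67 hosts measured on the array, 6 were higher and 46 (68.7%) lower in the control IP, with a median difference of -0.98, against 34.1% lower over all genes. In 73 of 88 pairs the snoRNA's difference was above its host's, and for 57 of the 67 hosts the median of its snoRNAs lay above it. HSPA8 itself had a difference of -0.81 (adjusted p = 0.11), and RABGGTB one of -2.40. The median difference of the 88 snoRNA genes was 0.05, close to the 0.06 of all genes. Across the 67 hosts, each set against the median difference of its snoRNAs, Pearson's r was 0.29. All of these values come from the same arrays.

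**Figure D3:**
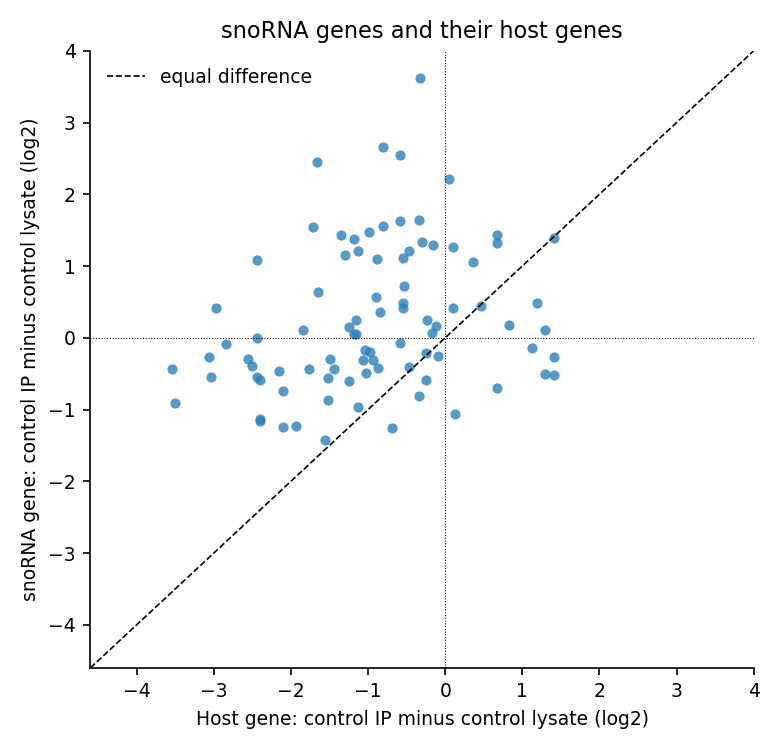
IP minus lysate difference in negative control cells (log2, after cyclic loess) of 88 snoRNA genes (vertical axis) against that of their host gene (horizontal axis); the dashed line marks equal differences. In 73 pairs the point lies above the line.

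The start of many snoRNA hosts carries a run of pyrimidines of the kind that marks messages of the translation machinery. A C within 2 bases of the annotated start followed by at least 4 further C or T, on the strand of the gene, was found in 28 of 75 hosts with a promoter entry (37.3%), including 11 of 11 ribosomal protein hosts, and in 10.5% of all 27305 promoters. A match describes these letters only. RPL13A and RACK1, whose snoRNAs were higher in the IP together, had such a run. SNHG14, the host of SNORD116 with 17 of 20 copies higher, had none at the annotated start used here. GAS5, with 4 of 7 snoRNAs lower, had none there either. Other starts of a gene were not looked at, so a host without a match may carry a run elsewhere. These hosts were chosen as examples, and whether the run goes with the direction of the snoRNAs was not tested. The 4 windows (RefSeq, GRCh38.p14, 20 bases before to 24 after the start base) lie at chr19:49487588-49487632 on the plus strand, chr5:181243882-181243926 on the minus strand, chr15:24823588-24823632 on the plus strand and chr1:173869021-173869065 on the minus strand, with the run in capitals.
RPL13A: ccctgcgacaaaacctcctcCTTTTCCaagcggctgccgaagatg
RACK1: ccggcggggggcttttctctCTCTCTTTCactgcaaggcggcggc
SNHG14: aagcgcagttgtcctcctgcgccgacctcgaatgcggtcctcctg
GAS5: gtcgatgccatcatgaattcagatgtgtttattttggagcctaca

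Messages of the proteins that bind and assemble snoRNAs were mostly lower in the control IP. Both C/D core proteins measured fell, FBL, the methyltransferase, by 0.77 and NOP58 by 1.94. Of the 4 H/ACA core proteins DKC1, the pseudouridine synthase, fell by 1.54 and NHP2 by 0.85, and NOP10 (-0.20) and GAR1 (0.17) were not called. Of 23 assembly and transport genes 17 were lower (73.9%, against 34.1% of all genes) and 2 higher without the filter, with NOLC1 at -2.83 and XPO1 at -3.03. Other small RNAs went both ways, with 8 higher (36.4%, against 36.3% of all genes) and 4 lower (18.2%) of 22. The minor spliceosomal RNAs RNU11 (2.24), RNU12 (2.25) and RNU6ATAC (2.28) were higher, and TERC, the H/ACA-type RNA of telomerase, was lower (-0.92). Of 164 microRNA genes 72 were higher (43.9%) and 10 lower (6.1%).

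The next question was whether the transfected RNA changed snoRNA levels. All 8 comparisons of a fraction share its 3 negative control arrays, so the counts are not independent. In the lysates few snoRNA genes passed the test, and their share was below that of all genes in each of the 8 comparisons. With miR-103 1 of 85 snoRNA genes was called (1.18%), against 17.2% of all genes, with miR-107 1 against 14.9%, with miR-16 2 (2.35%) against 17%, and with miR-107-mut2 2 against 13.8%. None was called with miR-195 (14% of all genes), miR-320 (2.96%), miR-15b* (7.54%) or miR-107-mut1 (8.77%). At an unadjusted p under 0.05 by limma, 7 of the 85 passed with miR-103 (8.24%, against 32.3% of all genes), 4 with miR-107 (4.71%, against 25%), 8 with miR-16 (9.41%, against 28.9%) and 8 with miR-195 (9.41%, against 24.6%). There were 2 with miR-320 (2.35%, against 11.4%), 6 with miR-15b* (7.06%, against 23.4%), 1 with miR-107-mut1 (1.18%, against 19.2%) and 17 with miR-107-mut2 (20%, against 28%). The typical replicate SD of the snoRNA genes in lysates was 0.266, against 0.193 for all genes, and their typical absolute change was 0.142, against 0.182.

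SNORD28 and SCARNA16 were each called in 2 of the lysate comparisons. SNORD28 had 7.45, 7.05 and 7.62 with miR-107-mut2, against 8.82, 8.62 and 8.37 in control lysates, a fall of 1.23 on the log2 scale (SE 0.24, n = 3 each, limma adjusted p = 0.00084). With miR-107 it had 7.76, 7.82 and 8.11, a change of -0.70 ± 0.24 (adjusted p = 0.048). The SNORD28 call with miR-107 was lost after loess within the fraction (adjusted p = 0.056), without a filter (0.059) and on leaving out any single array of either group except control replicate 3 (0.053 to 0.18). Neither group overlapped the controls. SNORD28 values with miR-103 (7.60, 8.18 and 8.01) and miR-195 (7.71, 8.08 and 8.19) also lay under every control value but did not pass. With the replicate block the miR-103 change of -0.67 passed (adjusted p = 0.044).

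SNORD4A, an RPL23A snoRNA, was the other gene called with miR-107-mut2. Its values were 7.61, 7.05 and 7.69, against 8.4, 7.98 and 8.04 in control lysates (-0.69 ± 0.19, SE, n = 3 each, limma adjusted p = 0.014), without overlap. The SNORD4A call was lost without miR-107-mut2 replicate 2 (adjusted p = 0.13) or control replicate 1 (0.087). RPL23A itself was not called in that comparison.

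SCARNA16, a Cajal body RNA, had 9.34, 9.89 and 9.37 with miR-103, against 9.24, 8.75 and 8.97 in control lysates (0.55 ± 0.18, SE, n = 3 each, limma adjusted p = 0.036), without overlap. With miR-16 it had 9.51, 9.83 and 9.23, and the lowest of these lay under the highest control (0.53 ± 0.18, adjusted p = 0.04). SNORD94, within PTCD3, had 7.21, 7.55 and 6.92 with miR-16, against 6.92, 6.73 and 6.73 in control lysates, a change of 0.44 ± 0.15 (adjusted p = 0.045). The lowest SNORD94 value with miR-16 equalled the highest control value to 2 decimals. In each of these groups the highest value came from the lysate of replicate 2, which stood apart. Without those arrays none of the 3 calls passed, with changes of 0.37 for SCARNA16 with miR-103, 0.38 for SCARNA16 with miR-16 and 0.28 for SNORD94. In that fit SCARNA16 passed with other guides instead, by 0.49 with miR-107, 0.42 with miR-195 and 0.44 with miR-107-mut2. The SCARNA16 calls were also lost without control replicate 2 or 3 (adjusted p 0.093 to 0.21), as was the SNORD94 call (0.14 each), and those with miR-16 without its replicate 1 (0.080 for SCARNA16 and 0.084 for SNORD94).

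Host genes of the snoRNAs were tested in the same lysates. Of 60 tested hosts 5 fell with miR-103 (8.88% of all genes fell), 6 with miR-107 (8.35%), 10 with miR-16 (7.45%), 12 with miR-195 (7.22%), none with miR-320 (1.5%), 1 with miR-15b* (4.04%), 6 with miR-107-mut1 (5.44%) and 6 with miR-107-mut2 (7.58%). None rose in any of the 8, and with miR-103 and miR-107 the counts were near the share of all genes. The ornithine decarboxylase gene ODC1 fell by 1.43 with miR-16 and by 1.52 with miR-195, and the condensin gene NCAPD2 by 1.18 and 1.24. NCAPD2 is the host of SCARNA10, which was not called in any of the 8. The ribosomal protein gene RPL27A, host of SNORA3A and SNORA3B, fell by 0.46 with miR-16 and by 0.59 with miR-195. The noncoding hosts ZFAS1 and SNHG29 fell with miR-195, by 0.43 and 0.28.

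Leaving out the 4 arrays that stood apart, or adding the replicate block, raised the counts. Without the 4 arrays, miR-107-mut2 had 12 snoRNA genes called in the lysate (2 higher, 10 lower), against 31.3% of all genes. Of those 10, 5 were SNORD116 copies, among them SNORD116-20 with a change of -0.42 (adjusted p = 0.025). miR-195 then had 7 (26.5% of all genes), miR-107 had 4 (27.2%), miR-103 had 1 (24.1%), miR-320 had 1 (9.01%), miR-107-mut1 had 1 (19.2%), and miR-16 and miR-15b* had none (21.1% and 11.8%). With the block there were 6 for miR-16, all higher (13.5% of all genes), 3 for miR-103 (25.6%), 3 for miR-195 (20.3%), 2 for miR-107 (20.9%), 2 for miR-15b* (13.7%) and 2 for miR-107-mut1 (14.4%). The shares of snoRNA genes stayed under the shares of all genes in each of these counts.

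**Figure D4:**
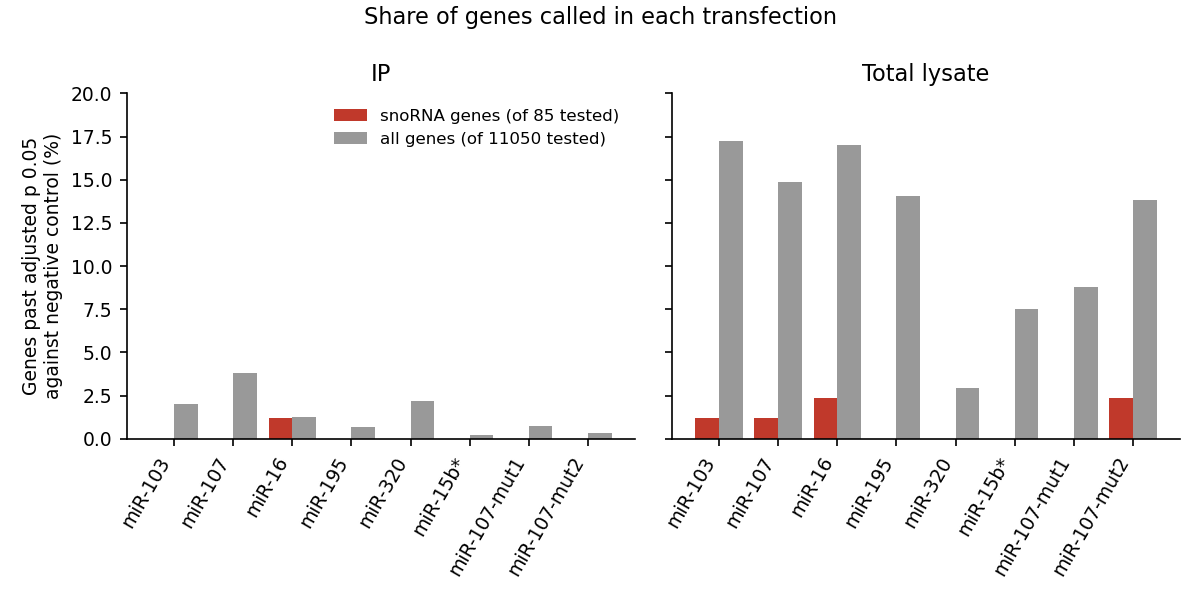
Share of snoRNA genes (of 85 tested) and of all genes (of 11050) past an adjusted p of 0.05 against the negative control, in IPs (left) and total lysates (right) of 8 transfections. In the lysates the snoRNA share is at most 2.35%, and the share of all genes reaches 17.2%.

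In the IPs 1 snoRNA gene was called in the 8 comparisons with the negative control. SNORD12C, within the noncoding host ZFAS1, had 5.15, 4.5 and 6.31 with miR-16, against 4.26, 3.17 and 3.77 in control IPs (1.59 ± 0.38, SE, n = 3 each, limma adjusted p = 0.037). The groups did not overlap, by a narrow margin between the second miR-16 and the first control value. The SNORD12C call was lost without miR-16 replicate 1 or 3 or control replicate 2 or 3 (adjusted p 0.092 to 0.17). With miR-16 1.26% of all genes were called; the shares were 2.03% with miR-103, 3.83% with miR-107, 0.67% with miR-195, 2.21% with miR-320, 0.217% with miR-15b*, 0.742% with miR-107-mut1 and 0.344% with miR-107-mut2. The replicate SD was larger here, at 0.556 for the snoRNA genes and 0.33 for all genes. At an unadjusted p under 0.05 by limma, 19 snoRNA genes passed with miR-16 (22.4%, against 12.7% of all genes), 11 with miR-195 (12.9%, against 11%) and 7 with miR-320 (8.24%, against 7.28%). The shares were below those of all genes elsewhere, with 6 for miR-15b* (7.06%, against 13.4%), 5 for miR-107 (5.88%, against 23.3%), 2 for miR-103 (2.35%, against 16.4%), 2 for miR-107-mut1 (2.35%, against 4.93%) and none for miR-107-mut2 (6.57% of all genes). Because snoRNA genes varied together between IPs, the genes that passed in 1 comparison are not independent.

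SNORD116 signal in the IP is given next for each transfection, as a description. The median of its 14 tested copies was 7.27, 7.88 and 7.87 in the 3 miR-16 IPs, 7.31, 7.92 and 6.90 in the miR-195 IPs and 5.74, 5.96 and 5.74 in the miR-320 IPs, against 6.51, 6.17 and 6.71 in the control IPs. The miR-16 and miR-195 values lay above, and the miR-320 values below, every control value. The miR-103 IPs (6.97 to 7.24) and miR-107-mut2 IPs (6.82 to 7.29) also lay above the controls, while miR-107 (6.40 to 6.77), miR-107-mut1 (6.05 to 6.54) and miR-15b* (4.69 to 6.99) overlapped them. With miR-16, miR-195 and miR-320 the other tested snoRNA genes lay in the same order. Their median was 5.33, 5.55 and 5.56 in the miR-16 IPs and 5.23, 5.44 and 5.28 in the miR-195 IPs. It was 4.68, 4.87 and 4.75 in the miR-320 IPs, against 5.11, 5.2 and 5.13 in the control IPs. With miR-103 (5.33, 5.3 and 5.1) and miR-107-mut2 (4.88, 5.47 and 5.12) it overlapped the controls, unlike the SNORD116 median. In lysates the group means of the SNORD116 median ran from 7.44 with miR-107-mut2 to 8.10 with miR-16, with 7.94 in controls.

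No SNORD116 copy passed the test over all 27 IPs. The 14 changes with miR-16 had a median of 0.82 (0.32 to 1.36, lowest adjusted p 0.071), those with miR-195 a median of 0.59 (lowest adjusted p 0.20), and those with miR-320 a median of -0.73 (-1.03 to -0.14, lowest adjusted p 0.22). The IP of miR-15b* replicate 1 belongs to none of these groups but enters the shared estimate of spread. Without it 8 of 85 snoRNA genes were higher with miR-16, where 0.29% of all genes were higher, and 6 of the 8 were SNORD116 copies. SNORD116-25 had 7.17, 7.71 and 7.82 with miR-16, against 6.23, 6.05 and 6.35 in control IPs (1.36 ± 0.25, limma adjusted p = 0.0039 without that array). SNORD116-25 and SNORD116-27 were also higher with miR-195 in that fit, where 0.136% of all genes were higher. With miR-320, 6 SNORD116 copies and no other snoRNA gene were lower (0.208% of all genes). SNORD116-20 had 10.51, 10.34 and 10.32 with miR-320, against 11.26, 11.10 and 11.16 in control IPs (-0.78 ± 0.16, adjusted p = 0.0057 without that array). After loess within the fraction all 14 copies were still above 0 with miR-16 (median 1.53, 4 called) and below 0 with miR-320 (median -0.73, none called). Medians of other guides were also higher in that fit: 1.21 with miR-195 (2 called), 0.96 with miR-103, 0.69 with miR-107 and 0.59 with miR-107-mut2. On the deposited values they were 0.59, 0.43, 0.10 and 0.30. With miR-15b* the loess median was -0.08 and with miR-107-mut1 -0.16. The size of these changes thus depended on the scale. The share of all genes called in that fit is not given, so nothing is read from these calls. In the lysates the 14 copies had a median change of -0.34 with miR-320 and of 0.14 with miR-16. With miR-15b* the IP median of the copies was -0.60 with its replicate 1 and 0.07 without it.

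The Cajal body RNA SCARNA12 was among the 8 genes with miR-16. It had 8.32, 8.54 and 8.59, against 7.08, 7.22 and 7.40 in control IPs (1.25 ± 0.27, adjusted p = 0.012 without the array that stood apart). With the replicate block 7 snoRNA genes were higher with miR-16, namely SNORD12C, SNORD116-25, SNORD116-26, SCARNA1, SCARNA16, SNORA71C and SNORA71D, where 0.452% of all genes were higher. With the block 4 were higher with miR-195 (0.271% of all genes), 1 was higher and 2 lower with miR-107 (17.6%), and 1 was lower with miR-15b* (4.62%). The differences in signal between transfections do not tell more Argonaute-bound RNA from more RNA carried over in the IP.

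**Figure D5:**
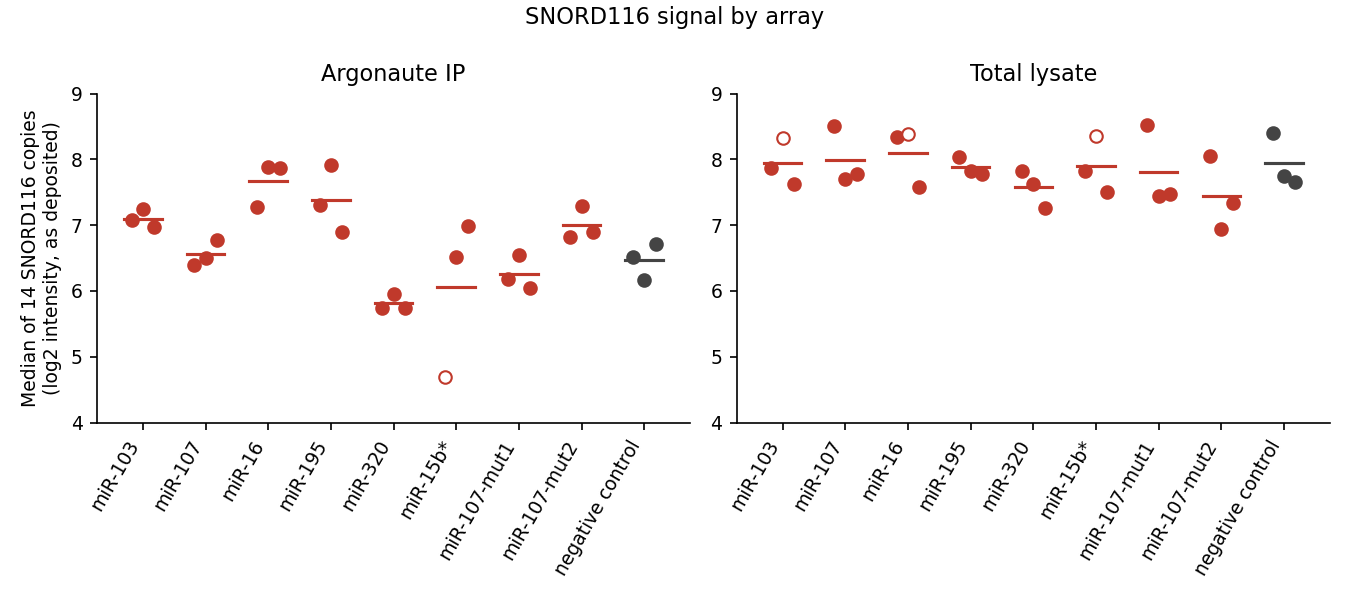
Median deposited log2 signal of the 14 tested SNORD116 copies on each array, in Argonaute IPs (left) and total lysates (right); points are arrays, bars are group means, and open points are arrays that stood apart from the rest of their fraction. The 3 miR-320 IPs lie at 5.74 to 5.96, under the control IPs at 6.17 to 6.71, and the 3 miR-16 IPs lie above them at 7.27 to 7.88.

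Changes in the IP were then set against changes in the lysate. No snoRNA gene passed the test of the IP change minus the lysate change in any of the 8 transfections, where 2.74% of all genes did with miR-103, 5.08% with miR-107, 1.58% with miR-16, 1.12% with miR-195, 2.28% with miR-320, 0.498% with miR-15b*, 1.66% with miR-107-mut1 and 0.724% with miR-107-mut2. At an unadjusted p under 0.05 by limma, 7 of 85 passed with miR-16 (12% of all genes), 7 with miR-195 (10.5%), 6 with miR-15b* (15.2%), 5 with miR-107 (20.5%), 2 with miR-107-mut2 (6.96%), 1 with miR-320 (6.58%), 1 with miR-107-mut1 (6.42%) and none with miR-103 (13%). For the 14 SNORD116 copies the median difference of changes was 0.31 with miR-103, -0.07 with miR-107, 0.68 with miR-16 (0.20 to 1.31), 0.50 with miR-195, -0.42 with miR-320, -0.60 with miR-15b*, -0.13 with miR-107-mut1 and 0.76 with miR-107-mut2, and the lowest adjusted p of a copy was 0.22.

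Last, the guides of the miR-103 seed (miR-103 and miR-107) were compared with those of the miR-16 seed (miR-16 and miR-195). In the IPs 1 snoRNA gene was called, where 0.38% of all genes were. SNORD15B, an RPS3 snoRNA, had 4.44, 4.28 and 4.39 with miR-103 and 3.98, 3.62 and 4.73 with miR-107, against 5.11, 4.86 and 5.52 with miR-16 and 5.37, 4.77 and 5.09 with miR-195 (-0.88 ± 0.20, SE, n = 6 each, limma adjusted p = 0.048). All 6 values lay under all 6 of the others, although 4.73 and 4.77 were close. The SNORD15B call was lost without a filter (adjusted p = 0.061) and on leaving out any single array except miR-107 replicate 3 or miR-195 replicate 2 (0.057 to 0.18). At an unadjusted p under 0.05 by limma, 24 of the 85 passed (28.2%), all of them lower, against 4.26% of all genes lower. The 24 are not independent, since snoRNA genes varied together between IPs. The median correlation was 0.74 between SNORD116 copies and 0.29 between the other tested snoRNA genes. The median change of the 85 was -0.42, and that of all tested genes -0.05. With the replicate block 4 passed, all lower (0.57% of all genes). They were SNORD15B, SNORD116-26, SCARNA1 and SCARNA16, the last by 1.36 on the log2 scale. Without the array that stood apart 4 passed as well, all lower (0.281% of all genes), namely SNORD15B, SNORD116-25, SNORD116-26 and SNORD116-27.

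In the lysates the same comparison called 1 snoRNA gene, where 10% of all genes were called. SNORA22 had 10.10, 10.49 and 10.37 with miR-103 and 10.66, 9.97 and 10.54 with miR-107, against 9.80, 10.28 and 9.73 with miR-16 and 9.73, 9.77 and 9.98 with miR-195 (0.47 ± 0.14, SE, n = 6 each, limma adjusted p = 0.033). The groups overlapped, and SNORA22 is named because it was the only call. At an unadjusted p under 0.05, 3 of 85 passed (3.53%), against 21.2% of all genes.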

How the data were processed

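RNA from Argonaute IPs and lysates was extracted with Trizol LS, labelled with the Ambion WT expression kit and hybridised to 54 arrays, per the labels' protocols. The submitters' processing notes name RMA and Expression Console 1.1, and the values deposited by the authors, made with them, were read as log2 from their range, the base not being given in the sources used here. Of 33297 probe sets 19460 carried 1 symbol, 1754 several and 12083 none in the platform annotation; all 192 members matched the gene table (GRCh38.p14) by gene ID. Hosts were genes spanning a member on either strand, since no strand was used for members, although the design asked for the same strand. The members and gene lists were chosen with earlier results of these data known.

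Within each fraction 27 arrays in 9 groups were fitted with limma 3.58.1 in R 4.3.3 (lmFit, eBayes) on 11050 genes after leaving out the lowest 40%, with Benjamini-Hochberg adjustment over all tested genes and a threshold of 0.05. IP was compared with lysate after cyclic loess of all 54 arrays, on the mean signals of both. Errors after ± are SE of the fitted difference. The fit was run on simulated data with independent noise and changes planted in the miR-107 comparison of each fraction, to check that their sizes were recovered. The simulation held no shared replicate effect and no arrays that stand apart, so it does not check the error rate for these data. Replicates are called biological in the labels, and p-values measure the spread between them. The named genes were those called without overlap between groups, up to 10 higher and 10 lower per comparison, the brightest 10 and dimmest 5 per fraction, and a list fixed by role.

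The labels' shared 6-digit tag pairs arrays of 1 replicate number. Deviations of same-numbered arrays had a mean correlation of 0.27 in IPs (-0.15 to 0.67, 84 of 108 pairs above 0.1) and 0.31 in lysates (-0.47 to 0.95, 79 of 108), against -0.13 and -0.14 for other pairs. Alternatives were no filter, a 60% filter, loess within the fraction, deposited values, quantile normalization, the replicate block, each array left out in turn and, added after seeing the data, the 4 apart arrays left out and IP minus lysate per culture.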

Additional observations from a re-analysis of the deposited data

How the results depend on the processing

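Counts are of snoRNA genes called. For the transfections, shares of all genes called are not given for the fits without a filter, with the 60% filter, with loess within the fraction or with an array left out. Those counts show only how the calls moved and are not read as results about the snoRNA genes. Without a filter they were 2 for miR-103, 2 for miR-107, 8 for miR-16, 1 for miR-107-mut1, 4 for miR-107-mut2 and 2 for the pooled guides in the lysate, 0 for the pooled guides in the IP and 111 for the control IP against lysate. With the 60% filter they were 0 for miR-107 and miR-107-mut2 and 1 for miR-107-mut1 in the lysate, and 0 for miR-16 and the pooled guides in the IP. Loess within the fraction gave 1 for miR-107, 6 for miR-16 and 2 for miR-195 in the IP, and 1 for miR-107-mut1 and 2 for miR-195 in the lysate. The replicate block gave 3, 2, 6, 3, 2 and 2 for miR-103, miR-107, miR-16, miR-195, miR-107-mut1 and miR-15b* in the lysate, 3, 7, 4 and 1 for miR-107, miR-16, miR-195 and miR-15b* in the IP and 4 for the pooled guides in the IP; it moved no other count by over 1.5 times, and the control IP against lysate kept 63 (64 paired by culture). Without the 4 arrays that stood apart the counts were 4, 0, 7, 12, 1 and 1 for miR-107, miR-16, miR-195, miR-107-mut2, miR-107-mut1 and miR-320, with 2 for the pooled guides, in the lysate, and 1, 8, 2 and 6 for miR-107, miR-16, miR-195 and miR-320 and 4 for the pooled guides in the IP. With each array left out in turn, lysate counts ran from 0 to 2 for miR-103, miR-195 and miR-15b*, 0 to 1 for miR-107 and the pooled guides, 0 to 5 for miR-16 and 1 to 4 for miR-107-mut2; IP counts ran from 0 to 1 for miR-16 and the pooled guides and 0 to 5 for miR-15b*, and the control IP against lysate ran from 59 to 63. On the deposited values, where IP arrays are dimmer, the 10 tested genes with the largest higher differences turned (SNORD116-16 and SNORD115-25, which were not tested, did not): SNORA14A to -0.55, SNORD116-14 to -0.94, SNORD116-20 to -0.93, SNORD116-23 to -1.36, SNORD116-24 to -0.92, SNORD116-25 to -1.48, SNORD116-27 and SNORD116-6 to -1.10, SNORD14C to -1.65 and SNORD33 to -1.06. Apart from that scale, the cause of the moves was not tested. Of 27 calls of named genes in the fits without a filter 24 kept their call. Of 174 refits with an array left out 130 kept it and 44 lost it. Both figures pool 18 calls of the control IP against lysate with 9 calls between transfections. They therefore do not measure how stable the 9 were, and losses among those are given with several of the genes above.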

Other observations

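A further 76 probe sets carry a snoRNA symbol beside other symbols, such as a host gene's, and were left out of every count above. Their mean signals had a median of 3.84 in the IPs (1.47 to 12.02), where all probe sets had 3.24, and of 7.86 in the lysates (2.44 to 14.2), where all probe sets had 7.02. Which of the symbols gave the signal cannot be told from these values. Among the members, SNORD115-25 had a median of 3.28 in the IPs (2.18 to 5.01) and of 3.13 in the lysates (2.83 to 3.99), so its median signal was not dimmer in the IP than in the lysate on the deposited scale. The lysate value lies at percentile 0.7 of all genes and the IP value at 42.0. The control difference for SNORD115-25 after loess was 2.99.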
